A study of Mus musculus with 12 samples.

Results

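Induction of FLAG-*Lhx1* in the line that carries its wild-type form was measured in 6 of the 12 RNA-seq libraries of the series, chosen by their labels: 3 libraries with doxycycline and 3 without it, with all genes in the table included. All libraries came from mouse embryoid bodies, which are clumps of embryonic stem cells that start to differentiate, grown for 2 days. The cells were A2lox.cre embryonic stem cells, built so that the antibiotic doxycycline turns on a gene inserted beside *Hprt* on the X chromosome. The untreated group received no doxycycline and the treated group received it for 16 h. The other 6 libraries came from a second line with a mutant FLAG-*Lhx1*, again 3 with doxycycline for 16 h and 3 without (mutated residues: not given in the sources used here). FLAG is a short peptide tag, and every group carries a FLAG-*Lhx1* transgene, so that the untreated libraries are cells in which the transgene was not induced. The labels name 1 line for each form, so a difference between the forms cannot be told apart from a difference between the lines. Transgene reads and reads of the cells' own *Lhx1* are counted together, so expression of the transgene without doxycycline was not measured.

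LHX1 is a LIM homeodomain transcription factor: its homeodomain binds DNA at sites with a TAAT core, and its LIM domains bind the adaptor LDB1, which joins it to other factors. It works in the visceral endoderm, the anterior mesendoderm and the node, tissues from which signals reach the overlying ectoderm during gastrulation, and mouse embryos without it lack the head in front of the hindbrain. These tissues secrete antagonists of WNT, BMP and NODAL, and enzymes that remove retinoic acid keep the front of the embryo free of that posteriorizing signal.

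The wild-type libraries held 4289984 to 4639290 counts, and the 12 libraries reached 4850393. Of 23086 gene symbols, 12322 had enough counts to be tested. A pair of wild-type libraries stood apart from the others of their group. Untreated library 3 had 229 CPM (counts relative to library size) of *Bnip3* and 10.98 of *Adm*, both raised by low oxygen, against at most 63.3 and 1.36 in the other untreated wild-type libraries. Library 2 with doxycycline had 14754 CPM of the ribosomal RNA precursor *Rn45s*, against at most 2615 in the other 11. Counts that lead a paragraph were repeated without this pair. The repeat is given where it moves a count by more than 1.5 times or ends a call. In the mutant line, untreated library 3 differed more from libraries 1 and 2 than these from each other. The chi-square of the counts per degree of freedom was 2.08 and 1.97, against 1.12. This library was kept, so the differences between the lines were not repeated without it. Whether replicates were separate cultures is not in the labels, and the p-values therefore rest on a spread between samples that may be technical.

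With doxycycline 655 of 12322 genes (5.32%) were called in the wild-type line, which here means a Benjamini-Hochberg adjusted p under 0.05 in edgeR's quasi-likelihood test. DESeq2 called 380. Of the 655, 340 (2.76% of the genes tested) were higher and 315 (2.56%) lower. The count minimum was reached only through the treated wild-type libraries by 14 of the 340, and only through the untreated ones by 3 of the 315. Most changes were small: 403 of the called genes changed by less than 1.5-fold, and the median was 1.45-fold for genes called higher and 1.32-fold for genes called lower. At least 2-fold changes were made by 107 called genes (0.868% of the genes tested), of which 78 were higher and 29 lower. The 3 treated libraries all lay on one side of the 3 untreated ones for 640 of the 655 called genes, as they did for 2329 (18.9%) of all genes tested. The median log2 fold change over all genes tested was 0.00. Counts of called list members given below are to be read beside the 5.32% called among all genes. Lists and members were chosen with earlier results of these data known, so a share above 5.32% is not independent evidence. Below, a value given with an SE and no unit is a log2 fold change with doxycycline. For each called gene whose 6 wild-type levels are printed, the treated libraries lay wholly above or wholly below the untreated ones. In these bulk samples, fewer cells of a type and less RNA per cell cannot be told apart.

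**Figure D1:**
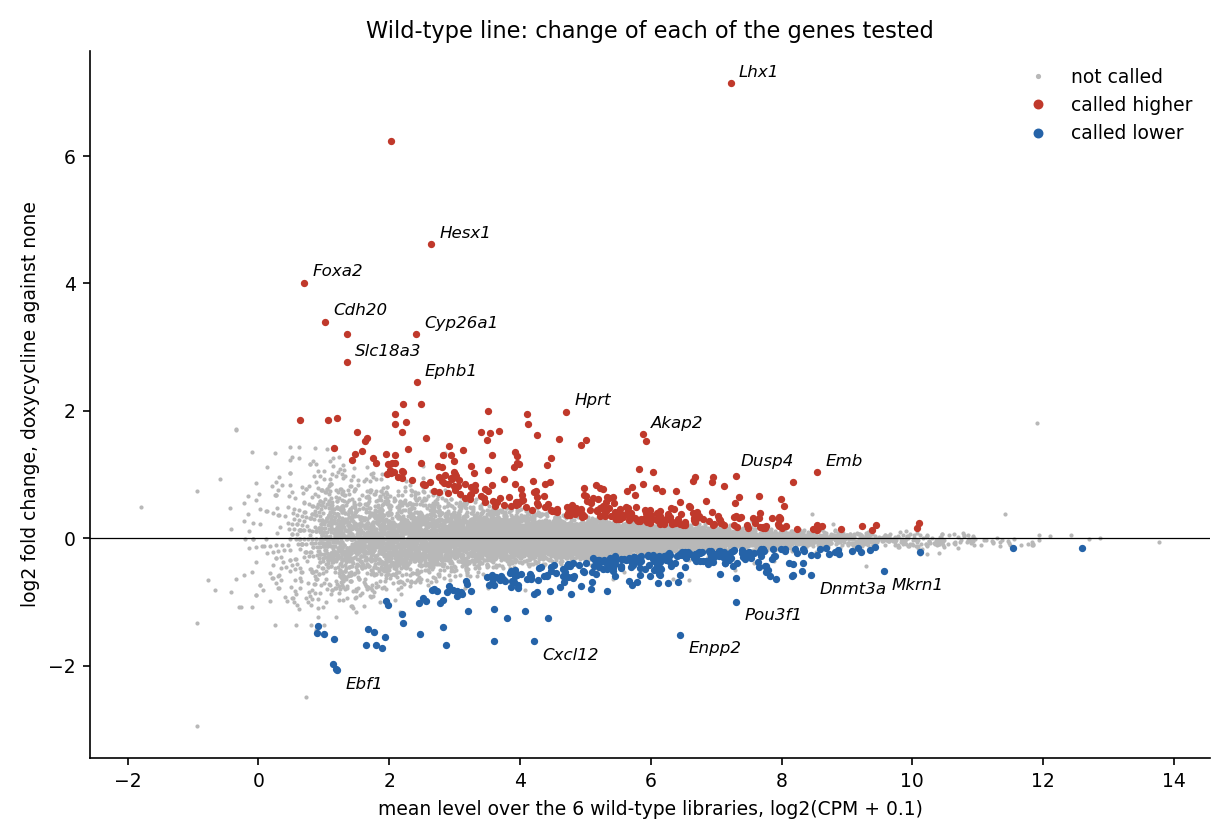
Each point is 1 of 12322 genes, with its mean level in the 6 wild-type libraries on the x axis (log2 of CPM plus 0.1) and its log2 fold change with doxycycline on the y axis. The 340 genes called higher are red and the 315 called lower are blue. The coloured points reach from 7.15 for *Lhx1* to −2.07 for *Ebf1*, and 403 of the 655 lie within 1.5-fold of no change.

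The largest rises belonged to transcripts that were scarce before induction, and several of these genes act in the anterior mesendoderm or the anterior neural plate. *Lhx1* itself (chromosome 11, 84518284 to 84525535, mm10, − strand) was at 3.33, 1.81 and 1.12 CPM in the untreated libraries and at 307, 289 and 293 with doxycycline (log2 fold change 7.15 with SE 0.12 and edgeR adjusted p = 3.86e-48). *Hesx1*, a repressor needed for forebrain and pituitary (chromosome 14, 26994416 to 27002329), was at 0, 0.452 and 0.897 CPM without and 13.9, 9.26 and 12.4 with doxycycline (log2 fold change 4.62 with SE 0.39 and edgeR adjusted p = 4.13e-14). *Cyp26a1* (chromosome 19, 37697798 to 37701536), the enzyme that degrades retinoic acid, was at 0.951, 1.58 and 0.448 and then 10.3, 8.79 and 9.13 CPM (log2 fold change 3.21 with SE 0.33 and edgeR adjusted p = 5.03e-11). For all 3 genes every treated library lay far above every untreated one. *Foxa2* (chromosome 2, 148042877 to 148046969), a forkhead factor of node, notochord and endoderm, had 1, 1 and 0 counts in the untreated libraries and 15, 11 and 12 in the treated ones (edgeR adjusted p = 2.82e-05). *Lmo1* (chromosome 7, 109138572 to 109175207), a LIM-only protein that can occupy LDB1, had 5, 1 and 0 counts and then 24, 13 and 22 (log2 fold change 3.21 with SE 0.56 and edgeR adjusted p = 6.73e-05). *Cdh20*, a cadherin, had 4, 0 and 0 and then 14, 19 and 13 (log2 fold change 3.40 with SE 0.60 and edgeR adjusted p = 4.77e-05). The ratio of summed, depth-scaled counts was 18.9 (95% exact interval 4.87 to 161) for *Foxa2*, 9.76 (95% exact interval 4.23 to 27.7) for *Lmo1* and 11.4 (95% exact interval 4.17 to 43.7) for *Cdh20*, where the intervals cover counting error only. In each of the 3 the lowest treated library exceeded the highest untreated one. *Hesx1*, *Cyp26a1*, *Foxa2*, *Lmo1* and *Cdh20* reached the count minimum only through the treated libraries. Such an entry favours a rise, so their direction is not independent evidence. Fitted sizes of such rises hang on single libraries: *Hesx1* had 5.52 without untreated library 3, *Lmo1* had 5.01 without untreated library 1, and all 4 untreated counts of *Cdh20* came from that library.

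**Figure D2:**
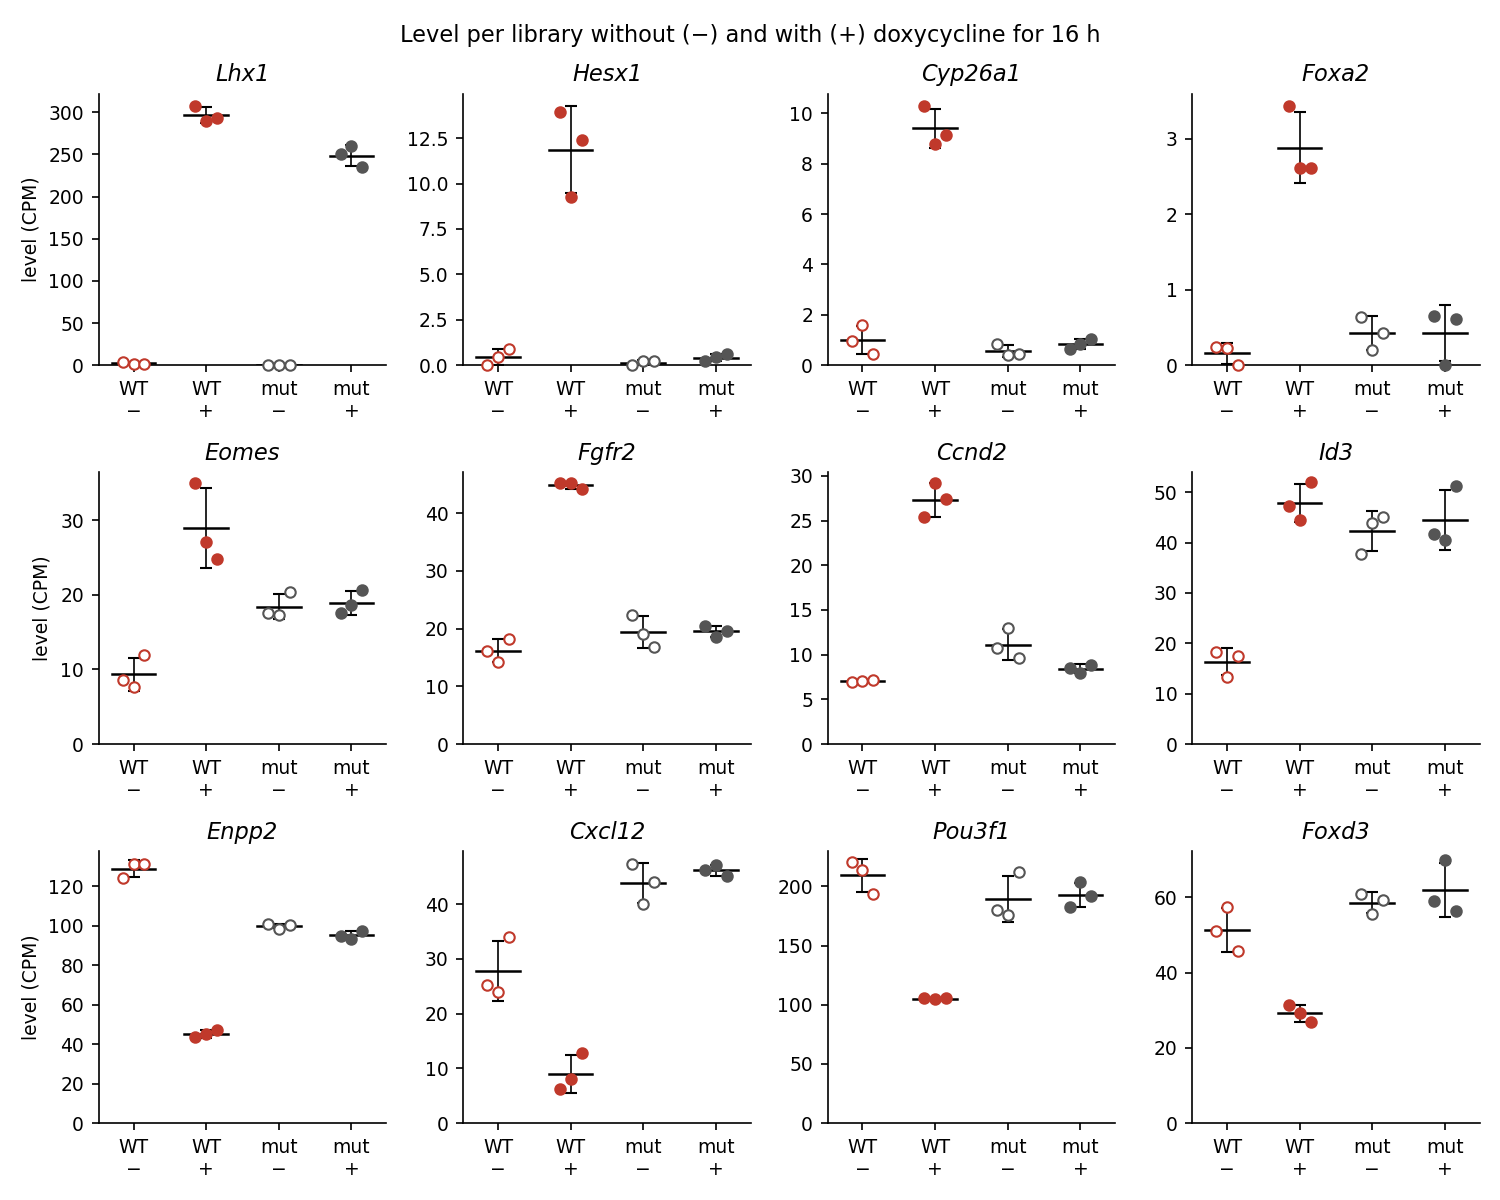
Level in CPM of 12 genes (linear axes from 0) in each library of the wild-type line (red) and the mutant line (grey), without (open points) and with doxycycline (filled points). Bars are group means with the SD of 3 libraries. *Hesx1*, *Cyp26a1*, *Foxa2*, *Eomes*, *Fgfr2*, *Ccnd2* and *Id3* are higher and *Enpp2*, *Cxcl12*, *Pou3f1* and *Foxd3* lower in the treated wild-type libraries, with no overlap with the untreated ones, while *Lhx1* rises in both lines.

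The DNA just upstream of 4 of the risen genes is shown because LHX1 belongs to the homeodomain proteins that recognise TAAT. TAAT and its reverse complement ATTA are in capitals. The 4 genes were picked without a fixed rule, so their match counts do not stand for all genes that rose. Each run is the 250 bases before the start of the gene in RefSeq's table for GRCm38.p6 (the mm10 assembly), read 5′ to 3′ on the gene's own strand. *Hesx1* is at chr14:27000112-27000361, + strand, *Cyp26a1* at chr19:37697558-37697807, + strand, *Lmo1* at chr7:109175208-109175457, - strand and *Eomes* at chr9:118477939-118478188, + strand.
Hesx1: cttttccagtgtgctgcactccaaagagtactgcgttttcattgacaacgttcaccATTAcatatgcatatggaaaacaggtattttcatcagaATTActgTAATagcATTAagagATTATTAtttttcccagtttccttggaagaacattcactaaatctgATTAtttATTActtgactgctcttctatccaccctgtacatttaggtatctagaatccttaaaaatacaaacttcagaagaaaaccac
Cyp26a1: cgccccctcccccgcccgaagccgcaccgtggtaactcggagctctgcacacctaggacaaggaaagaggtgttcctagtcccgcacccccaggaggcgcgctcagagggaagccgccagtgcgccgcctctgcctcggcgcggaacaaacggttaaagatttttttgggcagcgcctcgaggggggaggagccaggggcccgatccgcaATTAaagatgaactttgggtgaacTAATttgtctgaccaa
Lmo1: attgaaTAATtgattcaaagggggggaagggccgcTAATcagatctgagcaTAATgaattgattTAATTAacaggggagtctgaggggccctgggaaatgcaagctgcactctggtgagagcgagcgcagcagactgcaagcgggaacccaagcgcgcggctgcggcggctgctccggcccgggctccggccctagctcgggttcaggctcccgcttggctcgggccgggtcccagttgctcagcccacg
Eomes: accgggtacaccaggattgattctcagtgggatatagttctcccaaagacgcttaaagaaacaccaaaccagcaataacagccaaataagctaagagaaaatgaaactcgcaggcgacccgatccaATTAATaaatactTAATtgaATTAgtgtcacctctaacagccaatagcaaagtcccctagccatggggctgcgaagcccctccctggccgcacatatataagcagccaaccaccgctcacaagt
The *Hesx1* window held 8 matches to TAAT on either strand and had a GC content of 34.0%, and 0.0914% of the windows of the 9842 matched genes held at least as many. RefSeq starts *Hesx1* inside the longer GENCODE model given above. That of *Lmo1* held 5, including the palindrome TAATTA, in which a TAAT overlaps an ATTA, and 1.22% of windows held at least 5. *Eomes* had 4 matches (2.76% of windows held at least 4) and *Cyp26a1* had 2 (15% held at least 2).

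Across all called genes the motif was about as frequent as elsewhere. At least 1 TAAT on either strand stood in 38.4% of the 9842 windows of tested genes, in 37.4% of the 254 windows of genes called higher and in 41.5% of the 248 windows of genes called lower. TAATTA stood in 2.21% of all windows, in 2.36% of those called higher and in 1.21% of those called lower. Among the 56 windows of genes called higher by at least 2-fold, 4 (7.14%) held TAATTA, and among the 19 called lower by at least 2-fold none did. TAAT on either strand stood in 48.2% and 63.2% of these smaller sets, whose median GC content was 59.6% and 58.8% against 60.4% for all windows. A match is a description of the sequence, and binding was not measured here.

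Several organizer and anterior mesendoderm genes rose. Of 22 genes on this list 14 were tested, of which 7 rose (*Gpc4* among them, described with *Hprt*), 1 fell and 6 were not called. *Hesx1*, *Foxa2* and *Cyp26a1* reached the count minimum only through the treated libraries. Such an entry favours genes that are higher there, so the direction of these 3 is not independent evidence. Among the other 11 tested members 4 rose and 1 fell. The 8 that could not be tested included the defining organizer genes *Gsc* (4 counts untreated, 7 treated), *Cer1* (17 and 19), *Dkk1* (10 and 8), *Nog* (5 and 3) and *Noto* (0 and 0). *Shisa2*, which holds FGF and WNT receptors back from the cell surface, was at 5.47, 6.56 and 5.16 CPM untreated and 16.7, 14.7 and 18.7 treated (log2 fold change 1.54 with SE 0.19 and edgeR adjusted p = 6.04e-09). *Sfrp1*, a secreted WNT antagonist, was at 27.1, 31.7 and 26.2 and 48.9, 50.4 and 45.9 CPM (log2 fold change 0.77 with SE 0.10 and edgeR adjusted p = 6.58e-08). *Fzd8*, a WNT receptor of the anterior embryo, was at 8.33, 6.78 and 6.72 and 17.8, 13.8 and 14.1 (log2 fold change 1.07 with SE 0.18 and edgeR adjusted p = 1.40e-05). In all 3 genes the treated libraries lay above the untreated ones without overlap. *Lefty1*, a secreted NODAL antagonist that marks the anterior visceral endoderm, was the member that fell, from 62.3, 63.5 and 55.1 CPM to 45.5, 42.5 and 47.4 (log2 fold change −0.42 with SE 0.08 and edgeR adjusted p = 0.000417). *Otx2*, the homeobox gene of the forebrain and midbrain, had 0.04 (SE 0.07) with edgeR adjusted p = 0.865. Of 10 tested LIM-domain and LIM-interacting proteins only *Lmo1* was called, which reached the count minimum only through the treated libraries. None of the other 9 was called, and *Ldb1*, the adaptor of LHX1, had −0.02 (SE 0.07).

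Of 10 tested genes of the anterior neural plate and neural ectoderm 3 rose and 1 fell. *Pax6*, a regulator of eye and forebrain, was at 4.04, 3.84 and 4.03 CPM untreated and 9.83, 9.74 and 10.2 treated (log2 fold change 1.32 with SE 0.22 and edgeR adjusted p = 2.13e-05). *Zic2*, a zinc finger factor of the neural plate, rose by 0.34 (SE 0.06) on the log2 scale. *Sox3* fell by 0.56, but its call was lost without untreated library 3, treated library 2 or the pair that stood apart (3 of 13 alternatives, highest adjusted p 0.186). The 14 members with few counts were not tested, among them *Sox1* (14 counts untreated, 9 treated) and *Six6* (3 and 3).
*Eomes* (chromosome 9, 118478212 to 118486132), a T-box factor of the primitive streak and anterior mesendoderm, was at 8.56, 7.69 and 11.9 CPM untreated and 34.97, 27.1 and 24.8 treated (log2 fold change 1.62 with SE 0.15 and edgeR adjusted p = 5.53e-12), and was the only one called of 5 tested genes of streak and mesoderm. T, which marks the streak and the notochord, had 7 counts untreated and 4 treated over 3 libraries.

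Other homeobox genes moved both ways, 4 higher and 5 lower of 25 tested, and 1 higher and 4 lower without the pair of libraries that stood apart. Of the 4, *Prrx2* reached the count minimum only through the treated libraries, as did *Msx2*, which was not called. Among the other 23 tested members 3 rose and 5 fell. *Irx3*, an Iroquois factor of the neural plate, was at 1.67, 2.26 and 2.47 CPM untreated and 9.14, 6.65 and 4.78 treated (log2 fold change 1.66 with SE 0.33 and edgeR adjusted p = 0.000394). *Pou3f1* (chromosome 4, 124656807 to 124660655), a POU factor of the epiblast and early neural cells, was at 221, 214 and 194 CPM and then 105, 105 and 106, the steepest fall of this list (log2 fold change −0.99 with SE 0.06 and edgeR adjusted p = 5.72e-17).

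Of 36 tested FGF ligands, receptors and ERK feedback genes 6 rose and 3 fell. *Fgfr2*, an FGF receptor, was at 16.2, 14.2 and 18.2 CPM untreated and 45.3, 45.1 and 44.1 treated (log2 fold change 1.47 with SE 0.12 and edgeR adjusted p = 4.28e-15). Its relative *Fgfr1* had 0.18 (SE 0.06) (edgeR adjusted p = 0.0775). Among the ligands, *Fgf5* of the epiblast was at 87.8, 90.4 and 80.9 and then 166, 161 and 151 CPM (log2 fold change 0.88 with SE 0.06 and edgeR adjusted p = 4.45e-17), *Fgf15* rose by 0.66 (SE 0.11) and *Fgf4*, its neighbour on chromosome 7, fell by 0.39 (SE 0.06). *Fgfbp1*, which releases FGFs from the matrix, was at 2.14, 3.62 and 2.02 and then 6.86, 7.84 and 6.09 (log2 fold change 1.40 with SE 0.27 and edgeR adjusted p = 0.000163). Of the feedback inhibitors, *Dusp4*, an ERK phosphatase, was at 114, 109 and 97.95 and then 212, 212 and 208 CPM (log2 fold change 0.98 with SE 0.06 and edgeR adjusted p = 1.09e-18), and *Il17rd*, an inhibitor of FGF receptors, rose by 0.50 (SE 0.08). *Egr1*, an immediate early target of ERK, fell by 0.63 (SE 0.17), a call lost with DESeq2 and without untreated library 1, untreated library 2, treated library 1 or treated library 2 (5 of 13 alternatives, highest adjusted p 0.132). Several other ERK targets were not called: *Dusp6* had −0.01 (SE 0.07), *Spry4* 0.16 (SE 0.06), *Etv4* 0.11 (SE 0.08) and *Etv5* 0.00 (SE 0.04), with edgeR adjusted p of 0.974, 0.155, 0.534 and 0.979.

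WNT receptors changed in both directions. Of 40 tested genes of the pathway 5 rose and 5 fell, and without the pair of libraries that stood apart 3 rose and 4 fell. *Fzd7*, a WNT receptor of pluripotent cells, was at 266, 266 and 249.9 CPM untreated and 183, 192 and 178 treated (log2 fold change −0.50 with SE 0.05 and edgeR adjusted p = 3.02e-11). *Fzd2* and *Fzd5* rose instead, by 0.56 (SE 0.09) and 0.57 (SE 0.10), as did *Ror1*, a receptor of noncanonical WNT ligands, from 11.7, 8.59 and 8.07 to 21.3, 25.4 and 17.6 CPM (log2 fold change 1.18 with SE 0.16 and edgeR adjusted p = 2.39e-07). *Wnt8a*, a ligand of the streak, was at 5.23, 6.78 and 4.71 and then 1.14, 2.85 and 1.74 (log2 fold change −1.54 with SE 0.33 and edgeR adjusted p = 0.000978). *Lef1*, a nuclear effector, fell by 0.46 (SE 0.09), whereas *Axin2*, a common readout of canonical signalling, had −0.28 (SE 0.15) (edgeR adjusted p = 0.348).

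Of 22 tested NODAL and activin genes 4.55% were called and of 17 tested BMP genes 11.8%, against 5.32% of all genes. On the NODAL list none rose and *Skil*, a SMAD corepressor, fell by 0.59 on the log2 scale (SE 0.08). The antagonist *Lefty1*, counted with the organizer genes, fell too, as given there, and its relative *Lefty2* had −0.05 (SE 0.07) (edgeR adjusted p = 0.842). *Nodal* itself had −0.28 (SE 0.11) (edgeR adjusted p = 0.180). Without the pair of libraries that stood apart 1 NODAL gene rose and 2 fell, and limma-voom called 1 higher and 1 lower. On the BMP list *Id3*, an inhibitor of helix-loop-helix factors, was at 18.3, 13.3 and 17.5 CPM untreated and 47.3, 44.4 and 51.96 treated (log2 fold change 1.55 with SE 0.12 and edgeR adjusted p = 4.58e-15). Its relative *Id2* was at 23.1, 21.7 and 20.4 and then 15.5, 12.4 and 13.7 (log2 fold change −0.64 with SE 0.15 and edgeR adjusted p = 0.00311). *Id1* had −0.09 (SE 0.15) and *Bmp4* −0.23 (SE 0.28), with edgeR adjusted p of 0.842 and 0.781. *Id3* and *Id2* were thus called in opposite directions.

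Notch ligands moved in opposite directions. Of 22 tested genes of the pathway 3 rose and 3 fell. *Rbpj*, the DNA-binding partner of Notch, was at 206, 205 and 191 CPM untreated and 285, 321 and 318 treated (log2 fold change 0.62 with SE 0.05 and edgeR adjusted p = 2.34e-14). *Dll3*, a ligand that acts against Notch inside the cell, was at 9.51, 9.27 and 9.41 and then 21.3, 21.4 and 19.1 (log2 fold change 1.13 with SE 0.16 and edgeR adjusted p = 5.64e-07). *Dll1*, an activating ligand, was at 19.5, 12.2 and 17.5 and then 5.49, 9.74 and 7.61 (log2 fold change −1.11 with SE 0.19 and edgeR adjusted p = 1.93e-05). *Hes1*, a Notch target, had 0.06 (SE 0.18) (edgeR adjusted p = 0.925).

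Of 5 tested retinoid receptors 1 rose and 1 fell. *Rxrg*, a retinoid X receptor, was at 9.99, 7.23 and 6.05 CPM untreated and 31.3, 23.99 and 25.7 treated (log2 fold change 1.80 with SE 0.16 and edgeR adjusted p = 3.13e-13). *Rara*, a retinoic acid receptor, fell by 0.47 (SE 0.10). *Rarg*, *Rxra* and *Rxrb* were not called, at −0.14 (SE 0.06), 0.19 (SE 0.13) and −0.13 (SE 0.08). In all, 3 of 12 tested genes of retinoic acid handling rose, *Cyp26a1* among them, and 1 fell. *Cyp26a1* reached the count minimum only through the treated libraries, and among the other 11 tested genes 2 rose and 1 fell. The call of the remaining rise, of *Rdh11*, was lost without untreated library 3 or the pair that stood apart (2 of 13 alternatives, highest adjusted p 0.116).

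A lipid-signalling enzyme and a chemokine, both secreted, were among the falls beyond 2-fold. *Enpp2* (chromosome 15, 54838901 to 54952892), known as autotaxin, makes the lipid signal lysophosphatidic acid, and it was at 124, 131 and 131 CPM untreated and 43.4, 44.9 and 47.2 treated (log2 fold change −1.51 with SE 0.07 and edgeR adjusted p = 4.02e-25). Of the phosphatases that break this lipid down, *Ppap2b* and *Ppap2c* had 0.02 (SE 0.12) and 0.01 (SE 0.16). Its receptors *Lpar4* (−0.40) and *Lpar2* (0.29) were called in opposite directions. The call of *Lpar4* was lost without treated library 1 (1 of 13 alternatives, highest adjusted p 0.0527), and that of *Lpar2* was lost with DESeq2 and without untreated library 3, treated library 1, treated library 2 or the pair that stood apart (5 of 13 alternatives, highest adjusted p 0.350). *Cxcl12* (chromosome 6, 117168535 to 117181367), a chemokine that guides migrating cells, was at 25.2, 23.97 and 34.1 CPM and then 6.17, 8.08 and 12.8 (log2 fold change −1.61 with SE 0.17 and edgeR adjusted p = 2.28e-08). Of its receptors, *Cxcr4* had too few counts to be tested (16 untreated, 15 treated) and *Cxcr7* had −0.94 (SE 0.48) (edgeR adjusted p = 0.335). *Ntrk2*, the receptor of the neurotrophin BDNF, and *Irs4*, a docking protein of insulin receptors, also fell, *Irs4* from 18.3, 16.1 and 19.9 CPM to 5.71, 6.41 and 5.65 (log2 fold change −1.61 with SE 0.17 and edgeR adjusted p = 1.24e-10) and *Ntrk2* from 8.09, 9.04 and 13.2 to 2.51, 4.04 and 5.001 (log2 fold change −1.39 with SE 0.24 and edgeR adjusted p = 2.47e-05).

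Adhesion genes were called mainly as rises among the cadherins and in both directions among Eph receptors. Of 19 tested cadherins, protocadherins and catenins 6 rose and none fell, but 3 rose without the pair of libraries that stood apart. Of the 6, *Cdh20* reached the count minimum only through the treated libraries. *Cdh11*, a mesenchymal cadherin, was at 1.43, 1.36 and 2.24 CPM untreated and 7.54, 6.89 and 7.61 treated (log2 fold change 2.11 with SE 0.30 and edgeR adjusted p = 5.56e-07), and *Cdh3*, P-cadherin, was at 37.1, 34.1 and 43.3 and then 72.9, 58.9 and 67.6 (log2 fold change 0.80 with SE 0.09 and edgeR adjusted p = 6.32e-09). The cadherins that mark epithelial and mesenchymal states, *Cdh1* and *Cdh2*, had −0.03 (SE 0.04) and 0.28 (SE 0.12) with edgeR adjusted p of 0.813 and 0.203. Of 17 tested Eph receptors and ephrins 2 rose and 3 fell. *Ephb1* was at 2.14, 0.904 and 1.79 CPM and then 8.68, 9.74 and 8.26 (log2 fold change 2.45 with SE 0.29 and edgeR adjusted p = 3.84e-09), and *Epha7* rose by 1.14 (SE 0.22). *Epha2*, a receptor found on pluripotent cells, fell from 74.2, 80.9 and 72.6 to 44.3, 54.2 and 53.05 CPM (log2 fold change −0.59 with SE 0.08 and edgeR adjusted p = 1.75e-07), and *Epha1* and *Efnb2* fell by 0.47 and 0.50.

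Of 31 tested semaphorins, plexins, Slits, Robos and netrins, with related guidance molecules, 6 rose and 3 fell. *Ntn1*, netrin, was at 4.995, 2.71 and 5.38 CPM untreated and 11.2, 10.7 and 10.7 treated (log2 fold change 1.31 with SE 0.23 and edgeR adjusted p = 3.19e-05). *Sema3f*, a secreted semaphorin, was at 4.76, 2.26 and 4.93 and then 13.9, 9.50 and 9.35 (log2 fold change 1.45 with SE 0.23 and edgeR adjusted p = 8.70e-06), and *Plxna2*, a semaphorin receptor, at 0.951, 1.58 and 2.91 and then 5.94, 8.08 and 5.44 (log2 fold change 1.80 with SE 0.32 and edgeR adjusted p = 5.88e-05). *Sema6a*, a transmembrane semaphorin, fell by 0.67 (SE 0.09). *Robo3*, a receptor of the Slit family, rose by 1.90 (SE 0.44), a call that DESeq2 did not make (adjusted p = 0.0645). *Robo3* reached the count minimum only through the treated libraries, and among the other 30 tested members 5 rose and 3 fell.

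Genes of the basement membrane and its receptors were called in 42.3% of the 26 members tested, against 5.32% of all genes. Of the 26, 8 were higher and 3 lower, and 5 higher and 3 lower without the pair of libraries that stood apart. The list was chosen with earlier results of these data known, so this share is not independent evidence. Laminin chains differed in direction: *Lamb1* and *Lamc1*, chains shared by most early laminins, rose by 0.38 (SE 0.07) and 0.40 (SE 0.08), and *Lama5* fell by 0.39 (SE 0.08). The integrin subunits did so too. *Itga5*, part of the fibronectin receptor, rose by 0.53 (SE 0.11), while *Itga3* and *Itga6*, parts of laminin receptors, fell from 46.1, 40.7 and 39.7 to 24.7, 27.8 and 26.5 CPM (log2 fold change −0.68 with SE 0.10 and edgeR adjusted p = 9.56e-07) and by 0.35 (SE 0.06). *Ina*, the neuronal intermediate filament internexin, was at 63.03, 67.6 and 56.3 CPM untreated and 106, 105 and 102 treated (log2 fold change 0.74 with SE 0.07 and edgeR adjusted p = 4.37e-12).

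Of 21 tested genes listed for the formative and primed epiblast 5 fell, none rose and 16 were not called, with a median log2 fold change of −0.12 against 0.00 for all genes. The count depends on the choice of members, since *Fgf5*, another marker of this state that was counted with the FGF ligands, rose by 0.88 (SE 0.06). *Foxd3*, a forkhead factor of the epiblast and neural crest, was at 51.1, 57.4 and 45.7 CPM untreated and 31.3, 29.2 and 26.96 treated (log2 fold change −0.82 with SE 0.10 and edgeR adjusted p = 1.32e-08). *Dnmt3a*, a DNA methyltransferase, was at 430.3, 407 and 422 and then 279, 291 and 273 (log2 fold change −0.58 with SE 0.04 and edgeR adjusted p = 1.20e-15), and *Sall2*, a zinc finger factor, at 102, 110.3 and 102 and then 69.9, 73.9 and 66.7 (log2 fold change −0.58 with SE 0.06 and edgeR adjusted p = 5.51e-10). In each of these genes the highest treated library was below the lowest untreated one. *Dnmt3b*, the other de novo methyltransferase, had −0.12 (SE 0.04) (edgeR adjusted p = 0.0507).

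Of 28 tested genes listed for naive and general pluripotency 5 rose and 4 fell, with a median log2 fold change of 0.00. *Sall4* was at 159.8, 168 and 141 CPM untreated and 233, 270.1 and 237 treated (log2 fold change 0.66 with SE 0.06 and edgeR adjusted p = 4.84e-13), and *Zfp42* and *Spp1* rose by 0.32 (SE 0.06) and 0.48 (SE 0.09). Among the falls were *Dppa5a*, a marker of pluripotent cells, at −0.21 (SE 0.04) and *Tdh*, a threonine dehydrogenase, at −0.27 (SE 0.06). A pair of core pluripotency factors counted with the homeobox genes fell as well. *Nanog* was at 80.4, 73.03 and 57.8 and then 51.9, 45.1 and 53.7 (log2 fold change −0.48 with SE 0.09 and edgeR adjusted p = 0.000335). *Pou5f1*, which encodes OCT4, was at 1225, 1173 and 1183 and then 1070.0, 985 and 1045 (log2 fold change −0.21 with SE 0.04 and edgeR adjusted p = 0.000531). On the pluripotency list *Sox2* and *Klf4* had −0.15 (SE 0.05) and 0.21 (SE 0.28) with edgeR adjusted p of 0.0501 and 0.810.

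Imprinted genes, expressed from 1 parental copy, gave 1 rise and 4 falls of 30 tested. *Mest* was at 210.3, 204 and 198 CPM untreated and 390.4, 366 and 368 treated (log2 fold change 0.88 with SE 0.05 and edgeR adjusted p = 1.31e-20). *Rian* and *Mirg*, noncoding RNAs that lie next to each other on chromosome 12, were at 315, 345 and 332 and then 246, 244 and 259 CPM (log2 fold change −0.41 with SE 0.05 and edgeR adjusted p = 5.45e-10) and 14.3, 16.7 and 14.3 and then 10.5, 7.60 and 9.13 CPM (log2 fold change −0.73 with SE 0.17 and edgeR adjusted p = 0.00260). *Meg3*, from the same cluster, had −0.42 (SE 0.12) (edgeR adjusted p = 0.0781). *Nnat* fell by 0.59 (SE 0.12), and *Gnas* fell by 0.17, a call lost with DESeq2 or the wild-type libraries alone and without untreated library 2, treated library 2, treated library 3 or the pair that stood apart (6 of 13 alternatives, highest adjusted p 0.226). Of 24 Polycomb and Trithorax subunits 2 fell (8.33%, against 5.32% of all genes called), *Jarid2* and *Kdm6b*. The call of *Jarid2* was lost with DESeq2 and without untreated library 1, treated library 1 or treated library 3 (4 of 13 alternatives, highest adjusted p 0.146), and that of *Kdm6b* was lost with DESeq2 and without untreated library 3, treated library 1 or the pair that stood apart (4 of 13 alternatives, highest adjusted p 0.0711).

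Interferon and antigen processing genes were called in 12 of 28 tested, 3 higher and 9 lower, with a median log2 fold change of −0.24 against 0.00 for all genes. Those that rose were the Ifitm genes, antiviral membrane proteins also expressed in the early embryo and its germ cells. *Ifitm1* was at 66.1, 75.1 and 68.6 CPM untreated and 135, 123 and 134 treated (log2 fold change 0.90 with SE 0.07 and edgeR adjusted p = 9.51e-16), *Ifitm3* at 42.1, 35.9 and 33.2 and then 63.3, 53.9 and 68.9 (log2 fold change 0.75 with SE 0.09 and edgeR adjusted p = 2.92e-08), and *Ifitm2* rose by 0.56 (SE 0.06). Ifitm genes are close copies, and reads shared between them make their separate values uncertain. *Irf1*, an interferon regulatory factor, was at 97.5, 93.1 and 94.6 and then 64.9, 56.8 and 54.8 CPM (log2 fold change −0.69 with SE 0.07 and edgeR adjusted p = 1.97e-10). Genes of antigen processing fell too, with −0.47 (SE 0.08) for *Psmb10* of the immunoproteasome and −0.59 (SE 0.11) for *Tapbp*, tapasin. *Parp9*, which acts in interferon signalling, had −0.68 (SE 0.12) and *Bst2*, an antiviral membrane protein, −0.29 (SE 0.07). *B2m* and *H2-D1*, of antigen presentation, were not called, at 0.07 (SE 0.13) and −0.40 (SE 0.18). The list was extended from one that had been drawn up on these libraries, so its direction is not independent evidence.

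Among cell cycle genes 1 cyclin stood out. None of 28 tested genes of DNA replication and mitosis was called by edgeR, DESeq2 or limma-voom, with 3 at an unadjusted p under 0.05 and log2 fold changes from −0.10 to 0.14. *Ccnd2*, a D-type cyclin, was at 6.90, 7.01 and 7.17 CPM untreated and 25.4, 29.2 and 27.4 treated (log2 fold change 1.95 with SE 0.15 and edgeR adjusted p = 4.81e-15), while *Ccnd1* had 0.00 (SE 0.06) and *Ccnd3* 0.17 (SE 0.08). It was the only one called of 22 tested G1 cyclins, kinases and inhibitors. Of 15 genes of the BCL2 family 2 rose and 2 fell. *Mcl1*, a short-lived survival protein, was at 372, 378 and 372 CPM and then 259.6, 263 and 262 (log2 fold change −0.52 with SE 0.04 and edgeR adjusted p = 1.13e-13). *Bcl2l1*, which encodes the survival protein BCL-X, and *Pmaip1*, a BH3-only protein that opposes MCL1, rose by 0.44 (SE 0.09) and 0.40 (SE 0.08). *Bax* fell by 0.16, a call lost with DESeq2, upper-quartile scaling, a replicate block or the wild-type libraries alone and without untreated library 1, untreated library 2, untreated library 3, treated library 2, treated library 3 or the pair that stood apart (10 of 13 alternatives, highest adjusted p 0.281).

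Among 25 tested genes of the LIF receptor, JAK and STAT pathway *Socs2*, a feedback inhibitor of cytokine receptors, was called alone. It was at 66.6, 71.4 and 69.9 CPM untreated and 132, 141 and 132 treated (log2 fold change 0.96 with SE 0.06 and edgeR adjusted p = 9.72e-18), and *Socs3*, the usual target of LIF signalling, had −0.01 (SE 0.42). None of 24 tested cholesterol synthesis genes was called by edgeR, DESeq2 or limma-voom (4 at an unadjusted p under 0.05). Of the ATF4 and amino acid list 1 of 25 was called (2 without the pair of libraries that stood apart), of p53 targets 1 of 19, of oxidative phosphorylation 2 of 91 and of ribosomal protein genes 1 of 77. With all libraries each of these shares was below the 5.32% called among all genes, and without the pair oxidative phosphorylation had 1 and the ribosomal list 1 called, both higher. *Nupr1*, the 1 called on the ATF4 list with all libraries, reached the count minimum only through the treated ones. None of 29 tested histone genes was called by edgeR, DESeq2 or limma-voom (7 at an unadjusted p under 0.05), with a summed level of 115 to 124 CPM untreated and 119.98, 234 and 118 CPM in the 3 treated libraries. The high value belongs to library 2, which stood apart in *Rn45s*. The list's median log2 fold change was 0.43, and 0.21 without the pair of libraries that stood apart. The difference between the lines was called for 6 of the 29 (3 without the pair), against 2.49% of all genes. Many histone genes are near copies of each other, which makes their separate counts uncertain. Of 26 hypoxia and glycolysis genes 1 rose and 1 fell (7.69% called, against 5.32% of all genes). The call of the fall, of *Gapdh*, was lost with DESeq2, limma-voom or the wild-type libraries alone and without untreated library 3, treated library 2, treated library 3 or the pair that stood apart (7 of 13 alternatives, highest adjusted p 0.188).

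**Figure D3:**
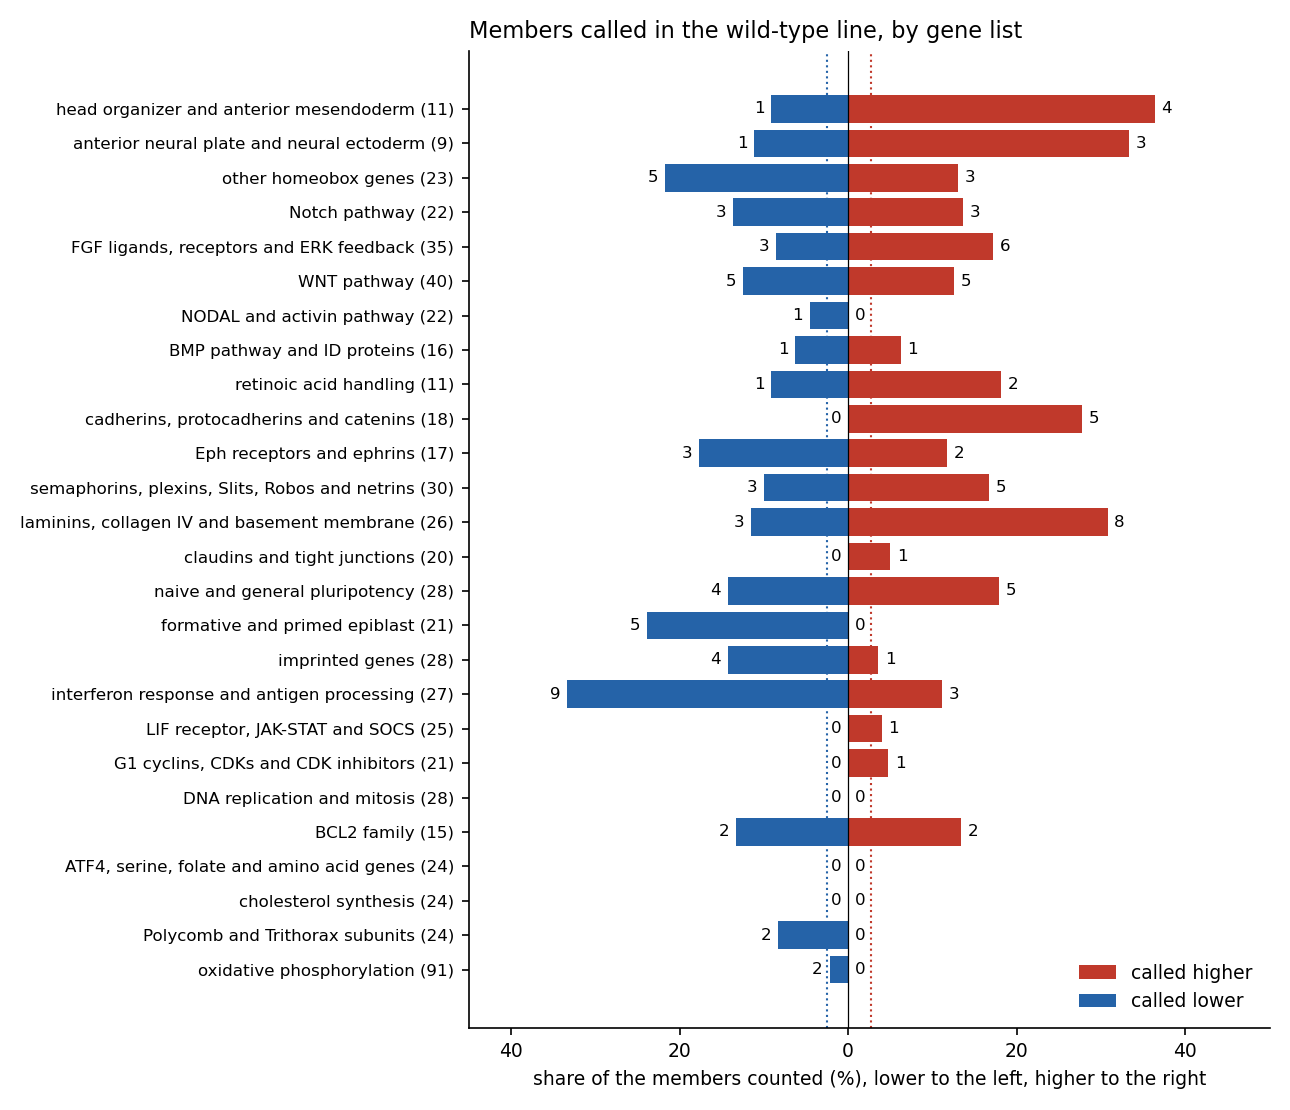
Share of the members of 26 gene lists that were called higher (red, right) or lower (blue, left) in the wild-type line, with the number of members in parentheses and the number called beside each bar. Counted are tested members that reach the count minimum without the treated and also without the untreated wild-type libraries, so that numbers can be below those in the text. Dotted lines mark the shares among all genes tested, 2.76% higher and 2.56% lower. By the rule used for the bars, 326 of 12081 genes were higher and 312 lower. Lists were chosen with earlier results of these data known, so a bar beyond a line is not independent evidence. The bar of the organizer list reaches 4 of 11 to the right and that of the interferon list 9 of 27 to the left.

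Several genes outside these lists were among the 15 rises and the 15 falls with the smallest p-values. *Emb*, embigin, a membrane glycoprotein that escorts monocarboxylate transporters, was at 242, 255 and 238 CPM untreated and 534, 487 and 489 treated (log2 fold change 1.04 with SE 0.05 and edgeR adjusted p = 6.45e-26). *Akap2*, an anchor of protein kinase A, was at 26.4, 28.5 and 31.2 and then 86.4, 93.1 and 87.6 (log2 fold change 1.63 with SE 0.09 and edgeR adjusted p = 5.75e-22). *Dapk1*, a calmodulin-dependent death-associated kinase, was at 90.9, 86.6 and 74.4 and then 166, 163 and 164 (log2 fold change 0.97 with SE 0.06 and edgeR adjusted p = 1.67e-18). *Cxxc5*, a CXXC zinc finger protein, rose from 37.8, 35.04 and 35.2 to 72.4, 81.9 and 75.2 CPM (log2 fold change 1.09 with SE 0.08 and edgeR adjusted p = 9.94e-16). In these 4 genes the groups did not overlap.
On the falling side, *Mkrn1*, a ubiquitin ligase, was at 839, 856 and 967 CPM untreated and 617, 626 and 630.3 treated (log2 fold change −0.51 with SE 0.04 and edgeR adjusted p = 2.53e-13). *Pml*, the scaffold of nuclear bodies, was at 298, 289 and 296 and then 189.7, 196 and 179 (log2 fold change −0.64 with SE 0.05 and edgeR adjusted p = 7.25e-15), and *Sgk1*, a kinase controlled by glucocorticoids, at 187, 201 and 188 and then 123, 127 and 123 (log2 fold change −0.63 with SE 0.06 and edgeR adjusted p = 1.49e-12). *Gpx4*, which detoxifies lipid peroxides, fell by 0.59 (SE 0.06).

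Outside these lists, several scarce transcripts were among the 20 largest called rises of genes with at least 2 CPM and no overlap. *Slc18a3*, the vesicular acetylcholine transporter, had 2, 3 and 3 counts in the untreated libraries and 21, 13 and 23 in the treated ones (log2 fold change 2.77 with SE 0.47 and edgeR adjusted p = 2.16e-05). Its untreated counts all lay below the minimum count of 10. For genes outside the lists it is not shown here which reached that minimum only through the treated libraries. Entry to the test may thus have favoured such a rise, and its direction is not independent evidence. *Chrnb4*, a nicotinic acetylcholine receptor subunit, was at 1.67, 2.94 and 1.57 CPM and then 7.08, 7.13 and 7.83 (log2 fold change 1.82 with SE 0.30 and edgeR adjusted p = 1.11e-05), and *Sez6*, a neuronal membrane protein, at 3.81, 4.75 and 4.93 and then 15.5, 19.2 and 19.3 (log2 fold change 2.00 with SE 0.19 and edgeR adjusted p = 7.08e-12). *Ptges*, which makes prostaglandin E2, was at 1.90, 2.03 and 2.24 and then 8.46, 10.5 and 8.04 (edgeR adjusted p = 6.52e-08), and *Dusp26*, a phosphatase, rose by 1.96 (SE 0.36). Of the 22 tested members of the list of ion channels, neurotransmitter receptors and synaptic genes 1 was called (4.55%, against 5.32% of all genes), *Cntnap2*, a neurexin relative, at 0.84 (SE 0.20), a call lost with DESeq2 and without untreated library 2 (2 of 13 alternatives, highest adjusted p 0.0949). At the other end, *Ebf1*, a helix-loop-helix factor, and *Ndnf*, a secreted neurotrophic factor, had the steepest falls among the called genes, from 13, 20 and 14 to 1, 5 and 5 and from 17, 15 and 14 to 2, 1 and 8 counts. Their log2 fold changes were −2.07 (SE 0.44) and −2.04 (SE 0.48), and that of *Ndnf* was −3.23 without treated library 3. The treated counts of both genes all lay below 10, so entry to the test may likewise have favoured a fall. Of the 340 genes called higher 22 had a mean under 2 CPM before induction, and of the 315 called lower 13 had one under 2 CPM after it.

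By GENCODE M21 positions on the same assembly, called genes lay beside each other in several places. Of 9410 pairs of adjacent tested genes within 100 kb of each other, 813 held at least 1 called gene and 46 had both called, of which 42 moved in the same direction and 4 in opposite ones. In 7 of the 42 the gene models overlap. Of the neighbours of a called gene 10.7% were called themselves, against 4.56% of all members of such pairs. The genes named from here on as neighbours were chosen after their values were seen.

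On the X chromosome *Eras*, a RAS protein of embryonic stem cells (chromosome X, 7924276 to 7928607), was at 33.5, 34.1 and 26.2 CPM untreated and 93.2, 92.4 and 84.6 treated (log2 fold change 1.52 with SE 0.09 and edgeR adjusted p = 7.76e-20). *Pcsk1n*, whose model overlaps that of *Eras* on the other strand, had 1.56 (SE 0.14), *Hdac6*, a tubulin deacetylase, 0.82 (SE 0.06), and *Glod5* 1.19 (SE 0.31), a call lost with DESeq2 and without untreated library 3, treated library 2, treated library 3 or the pair that stood apart (5 of 13 alternatives, highest adjusted p 0.193). On chromosome 7 *Nphs1*, nephrin (chromosome 7, 30458315 to 30487223), was at 26.9, 30.3 and 33.6 CPM and then 11.9, 13.5 and 12.8 (log2 fold change −1.25 with SE 0.13 and edgeR adjusted p = 1.37e-10). Its neighbour *Kirrel2*, an immunoglobulin adhesion molecule that binds nephrin, was at 12.6, 12.4 and 7.85 and then 3.43, 4.04 and 2.83 (log2 fold change −1.67 with SE 0.26 and edgeR adjusted p = 5.12e-06), and *Aplp1* beside it had −0.62 (SE 0.12). *Nphs1as*, antisense to *Nphs1*, had −1.47 (SE 0.35), but the strand setting of the counting is not known here, so reads of this pair, and those of *Pcsk1n* and *Eras* where they overlap, cannot be told apart. Its call was lost without untreated library 1 (edgeR adjusted p = 0.0534). Also on chromosome 7, *Athl1*, *Ifitm2*, *Ifitm1*, *Ifitm3*, *B4galnt4* and *Pkp3* lie side by side and were all called higher, by 0.44 for *Athl1* at the one end and 0.81 for *Pkp3* at the other. The call of *Athl1* was lost with DESeq2 and without untreated library 1, untreated library 3, treated library 3 or the pair that stood apart (5 of 13 alternatives, highest adjusted p 0.228), and that of *Pkp3* was lost with DESeq2 and without untreated library 2 (2 of 13 alternatives, highest adjusted p 0.0706). *Il17rd* lies next to *Hesx1* on chromosome 14 and rose with it, whereas *Arhgef3* on its far side had −0.61 (SE 0.11). *Ptges* and *Prrx2* are neighbours on chromosome 2, *Prrx2* rising by 1.58 (SE 0.38), a call lost with DESeq2 and without untreated library 3, treated library 3 or the pair that stood apart (4 of 13 alternatives, highest adjusted p 0.0905).

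**Figure D4:**
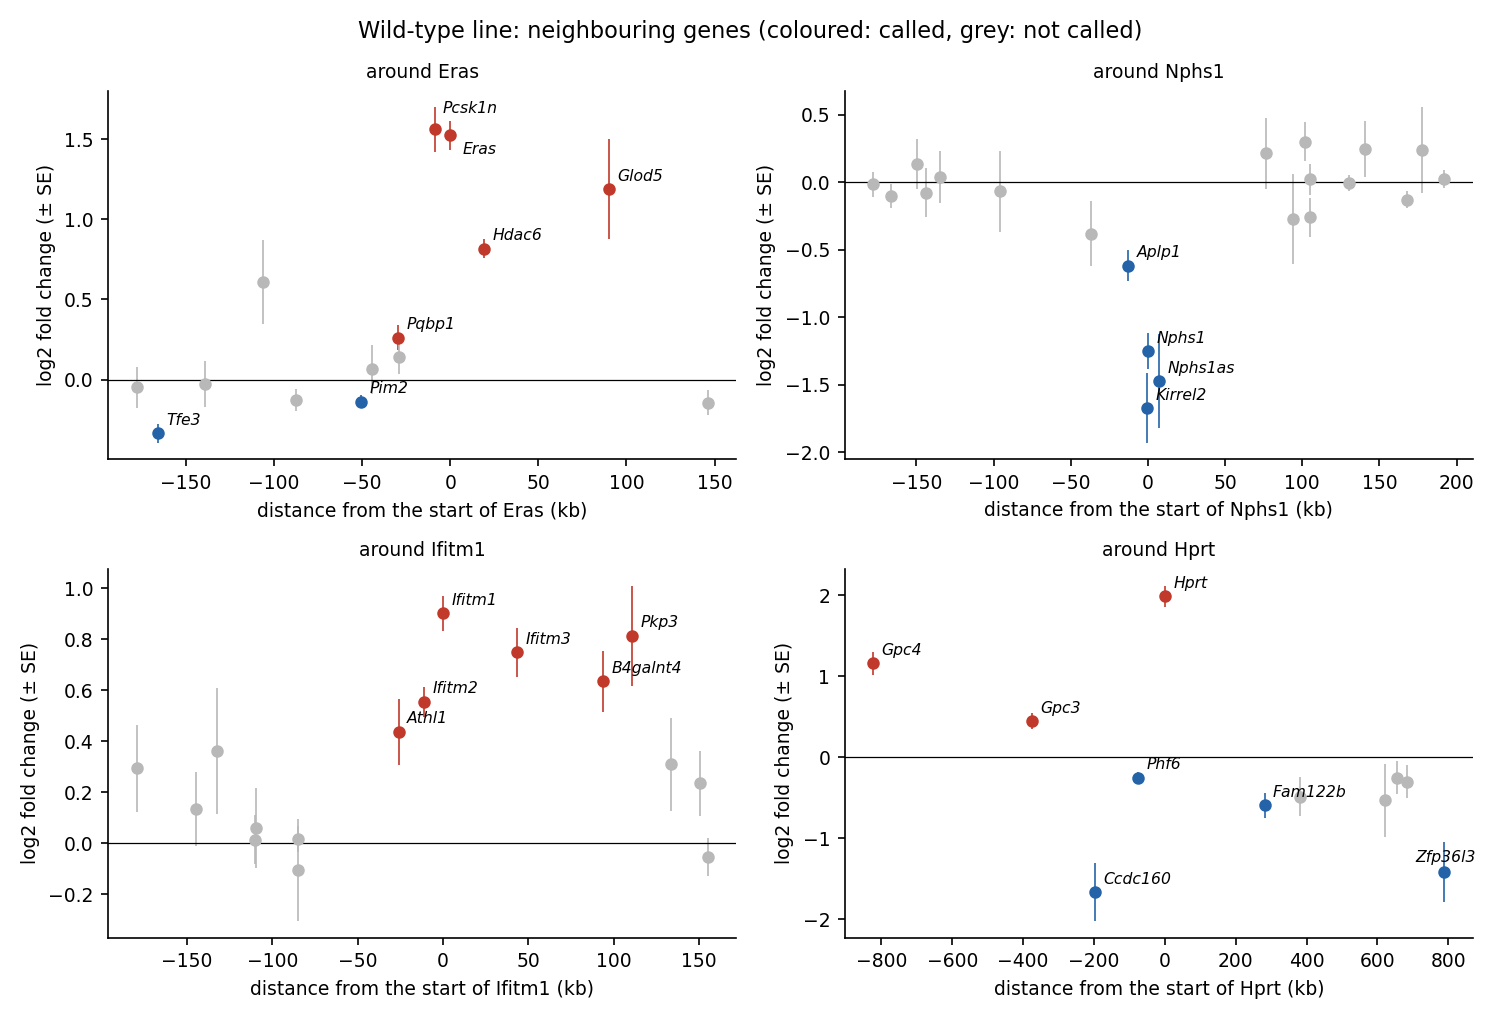
Log2 fold change with SE in the wild-type line for each tested gene around *Eras*, *Nphs1*, *Ifitm1* (200 kb on either side) and *Hprt* (1000 kb), against the distance in kb from the start of the named gene. Coloured points are called genes and grey ones are not. Runs of called genes with 1 direction lie beside *Eras*, *Nphs1* and *Ifitm1*, while the called genes around *Hprt* lie on both sides of 0.

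The transgene sits beside *Hprt*, and within the wild-type line the switching on of this locus and the presence of LHX1 cannot be told apart. *Hprt* (chromosome X, 52988137 to 53021659) was at 10.2, 10.9 and 10.3 CPM untreated and 43.9, 37.3 and 43.5 treated (log2 fold change 1.99 with SE 0.13 and edgeR adjusted p = 1.70e-18), and it rose in the mutant line as well, at 1.43 (SE 0.16), edgeR adjusted p = 5.79e-09. Of the 10 other tested genes within 1 Mb 6 were called. The glypicans *Gpc4* and *Gpc3*, heparan sulfate carriers, rose by 1.16 (SE 0.14) and 0.45 (SE 0.09), against −0.23 (SE 0.11) and −0.23 (SE 0.08) in the mutant line, and both differed between the lines (edgeR adjusted p of the difference 5.31e-08 and 0.000196). *Ccdc160* had −1.67 (SE 0.36), against −1.06 (SE 0.31) in the mutant line, where it was not called (edgeR adjusted p = 0.613). The difference for *Ccdc160* was not called either (edgeR adjusted p = 0.677). *Zfp36l3* had −1.42 (SE 0.37) and *Phf6* −0.25 (SE 0.07), against −0.70 (SE 0.28) and −0.31 (SE 0.07) in the mutant line. Neither was called there (edgeR adjusted p of 0.999 and 0.237). The wild-type call of *Zfp36l3* was lost with DESeq2 and without untreated library 1, treated library 2 or treated library 3 (4 of 13 alternatives, highest adjusted p 0.0795). That of *Phf6* was lost with DESeq2 or the wild-type libraries alone and without untreated library 2, treated library 1 or treated library 3 (5 of 13 alternatives, highest adjusted p 0.395). *Fam122b* had −0.60 (SE 0.15), and −0.28 (SE 0.16) in the mutant line, and its wild-type call was lost with DESeq2 and without untreated library 2 or treated library 3 (3 of 13 alternatives, highest adjusted p 0.116).

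The same treatment called 2 of 12322 genes (0.0162%) in the mutant line, *Lhx1* and *Hprt*, with 578 genes at an unadjusted p under 0.05 against 1966 in the wild-type line. In that line *Lhx1* was at 0.429, 0.407 and 0.428 CPM untreated and 249.9, 260.2 and 235 treated. The genes called higher in the wild-type line had a median log2 fold change of −0.02 in the mutant line, and so did those called lower. The difference between the responses was itself called for 307 genes (2.49%), which included 160 of the 340 genes called higher and 118 of the 315 called lower in the wild-type line, in the same direction. DESeq2 called 153 differences. *Enpp2* was at 101, 98.5 and 100.1 CPM untreated and 94.7, 93.1 and 97.4 treated in the mutant line (difference −1.44, SE 0.09, edgeR adjusted p = 8.80e-18). *Emb* had 0.01 (SE 0.04) in the mutant line (difference 1.03, SE 0.06, edgeR adjusted p = 1.27e-18) and *Akap2* −0.03 (SE 0.11) (difference 1.66, SE 0.14, edgeR adjusted p = 3.64e-13). *Pou3f1* had 0.03 (SE 0.06) there (difference −1.02, SE 0.09, edgeR adjusted p = 3.00e-12). *Dusp4* lay below 0 there, at −0.27 (SE 0.07) (difference 1.25, SE 0.10, edgeR adjusted p = 7.58e-15). *Ccnd2* did too, at −0.40 (SE 0.17) (difference 2.35, SE 0.24, edgeR adjusted p = 5.97e-11).
For some of the largest rises the difference was not called. *Hesx1* had 0, 1 and 1 counts untreated and 1, 2 and 3 treated in the mutant line, and an edgeR adjusted p of the difference of 0.406. That of *Cyp26a1* was 0.0695, that of *Foxa2* 0.0690 and that of *Lmo1* 0.0775, all with few counts in the untreated groups.
The untreated lines differed in level for some of these genes, which was not tested here: *Id3* was at 37.8, 43.96 and 45.1 CPM in the untreated mutant libraries against 18.3, 13.3 and 17.5 in the wild-type ones, and *Eomes* at 17.6, 17.3 and 20.3 against 8.56, 7.69 and 11.9.

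**Figure D5:**
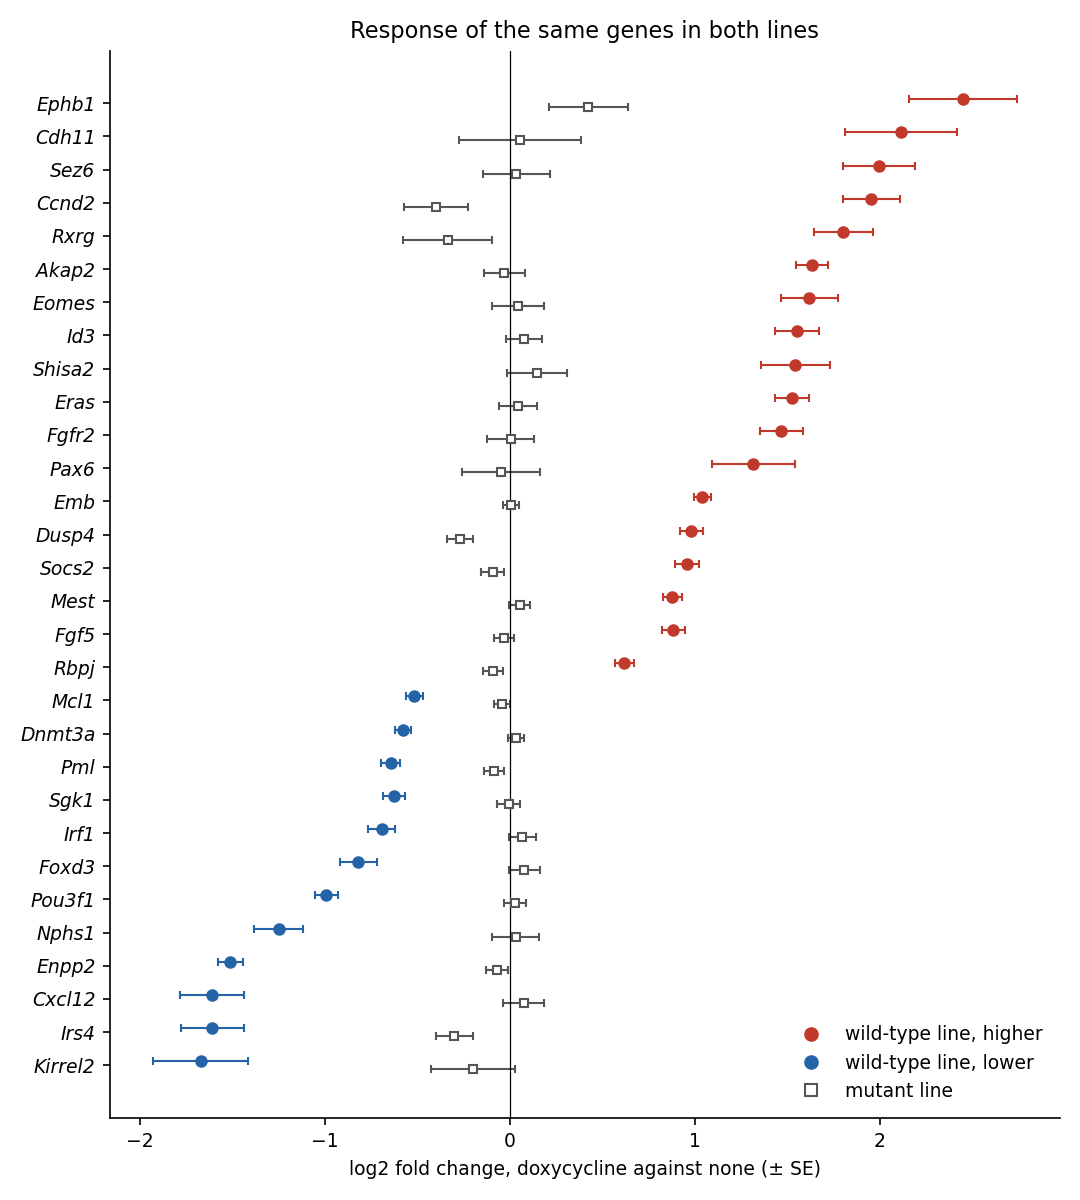
Log2 fold change with doxycycline (± SE) of 30 of the genes described above, picked after their values were seen, in the wild-type line (filled circles) and in the mutant line (open squares). The wild-type values run from 2.45 (*Ephb1*) to −1.67 (*Kirrel2*) and the mutant values of these 30 from −0.40 (*Ccnd2*) to 0.42 (*Ephb1*), while genes not drawn reach further in the mutant line, such as *Hesx1* at 1.43 (SE 1.03) and *Robo3* at −1.19 (SE 0.73).

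Markers of the epiblast, the state that young embryoid bodies pass through, were present. The 12 epiblast markers, all tested, summed to 7175 to 7588 CPM untreated and 7030.5 to 7089.5 with doxycycline, with 2 called higher and 2 lower (2 and 5 without the pair of libraries that stood apart). Of 18 primitive and visceral endoderm markers 5 were tested and none was called by edgeR, DESeq2 or limma-voom (3 at an unadjusted p under 0.05). The list summed to 101 to 141 CPM untreated and 95.3 to 150.3 treated, *Sox17* had 4 counts in each group and *Apoa4* none. Of 12 definitive endoderm markers 4 were tested and of 10 node and notochord markers 4, and in both lists *Foxa2* alone was called (1 definitive endoderm marker fell as well without the pair of libraries that stood apart). *Foxa2* reached the count minimum only through the treated libraries, and with all libraries none of the other 3 tested markers of either list was called. The definitive endoderm list summed to 394 to 469 CPM untreated and 395 to 431 treated. *Trh*, the precursor of thyrotropin-releasing hormone, made up most of it, at 319 ± 39.5 CPM (SD, n = 3) untreated, with *Cldn6*, a claudin, at 109 ± 0.804. Their log2 fold changes were −0.09 (SE 0.06) and −0.09 (SE 0.06), and neither was called. The node and notochord list summed to 9.72 to 11.9 CPM untreated and 12.4 to 16.2 treated. Its defining gene *Noto* had no count in either group. Of 11 trophoblast markers 2 were tested, with sums of 7.91 to 9.28 and 8.91 to 9.57 CPM, and *Elf5* at 0. Germ cell, two-cell-like, fibroblast and blood and endothelium markers held 8, 3, 6 and 4 tested genes, none called by edgeR or limma-voom, with 2 fibroblast genes, *Dcn* and *Twist1*, at an unadjusted p under 0.05 and 1 called lower by DESeq2.
Of 7 tested neuronal markers *Tubb3* rose by 0.40 (SE 0.08) and *Elavl3* fell by 0.52 (3 rose and none fell without the pair of libraries that stood apart). The call of *Elavl3* was lost with DESeq2 or the wild-type libraries alone and without untreated library 1, untreated library 3, treated library 1, treated library 2, treated library 3 or the pair that stood apart (8 of 13 alternatives, highest adjusted p 0.262). All 11 markers of the list summed to 169 to 177 CPM untreated and 179.8 to 212 treated. The part of such cells in the changes above was not tested.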

How the data were processed

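The values deposited by the authors are raw read counts, 1 row per gene symbol, from total RNA of embryoid bodies, 1 column for each of 12 libraries, matched to groups by the sample titles. Per the submitters' processing notes, Trimmomatic 0.33, TopHat2 2.1.1, limma and the mm10 genome were used. Counting tool, annotation and strand setting: not given in the sources used here. Counts were analysed as deposited with edgeR 4.0.16 (R 4.3.3): TMM scaling, filterByExpr (a minimum count of 10, a total of 15), quasi-likelihood tests with robust estimation, all 12 libraries with 1 mean per group, and Benjamini-Hochberg adjustment over 12322 genes. Each standard error (SE) is the absolute log2 fold change over the square root of F, which can be too small for scarce genes. No replicates were merged, since all pairs differed by more than sampling noise. The edgeR step was tested on simulated data. CPM are counts relative to the TMM-adjusted library size.

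Members and lists were chosen with earlier results of these data known. Genes were named by a rule: *Lhx1*, *Hesx1*, *Cyp26a1*, *Enpp2* and *Hprt*, the 20 largest called rises and falls with at least 2 CPM and no overlap, the 15 of each with the smallest p, up to 5 called and 2 uncalled genes per list, and genes within 1 Mb of *Hprt*. Others were added after their values were seen. Some genes chosen by the rule are not reported here. Alternatives were DESeq2 1.42.0, upper-quartile scaling, no filter, a replicate block, limma-voom (limma 3.58.1), only the 6 wild-type libraries and each wild-type library left out. A run without the pair that stood apart was added after seeing the data. No mutant library was left out on its own.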

Additional observations from a re-analysis of the deposited data

Results flagged for a closer look

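The difference between the responses of the lines, taken as wild-type minus mutant and tested in edgeR's fit, passed the threshold for 307 of 12322 genes (153 with DESeq2). The sizes below are on the log2 scale. The difference was 1.03 for *Emb*, 1.66 for *Akap2*, 0.83 for *Mest*, 1.48 for *Eras*, 1.25 for *Dusp4*, 0.91 for *Fgf5* and 1.46 for *Fgfr2*. It was 2.35 for *Ccnd2*, 1.48 for *Id3*, 1.58 for *Eomes*, 2.14 for *Rxrg* and 1.36 for *Pax6*. It was −1.44 for *Enpp2*, −1.02 for *Pou3f1*, −0.61 for *Dnmt3a*, −0.47 for *Mcl1*, −1.68 for *Cxcl12* and −1.31 for *Irs4*. Of the glypicans within 1 Mb of *Hprt*, *Gpc4* (822.9 kb away) had 1.38 and *Gpc3* (374.2 kb away) 0.68. The difference of −1.97 for *Lhx1* rests on few untreated counts, 14, 8 and 5 in the wild-type and 2, 2 and 2 in the mutant libraries.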

How the results depend on the processing

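The 655 genes called in the wild-type line became 380 with DESeq2 and the 307 differences between the lines 153. The first count was 643 with upper-quartile scaling, 719 without a filter, 648 with limma-voom and 549 with only the 6 wild-type libraries. It was 501 to 599 with 1 wild-type library left out. Without the pair that stood apart it was 543, of which 432 were among the 655. The mutant line gave 2 in each alternative in which its response was fitted, namely DESeq2, upper-quartile scaling, no filter, the replicate block and limma-voom. Its response was not refitted with libraries left out. The deviations of same-numbered wild-type libraries had correlations of 0.03, −0.12 and 0.16, within the −0.17 to 0.18 of differently numbered ones. With 3 libraries per group, some of which stood apart, these values cannot show whether replicate numbers pair the samples. With the replicate block 622 genes were called and 277 differences. Of 254 genes that met the naming rule 153 were called, 115 of which kept the call in all their alternatives and 38 lost it in at least 1. Of the 101 not called 10 were called in at least 1, and none of the 254 changed sign past the threshold. The scalings moved the median of all genes by at most 0.01. With 4289984 to 4850393 counts per library, little can be seen of scarce genes, such as most organizer and streak markers, and no interval here covers differences between cultures.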
